A study of Mus musculus with 19 samples.

Results

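The imprinted *Dlk1*-*Meg3*-*Dio3* domain was followed on mouse chromosome 12 in 900 kb between 110.65 and 111.55 Mb of NCBIM37. It was chosen by position and by its genes and held 450 of the 1327469 tiles of 2 kb that covered the genome. Its members were 6 of the 23653 protein-coding and lincRNA genes fitted, *Dlk1*, *Meg3*, *Rtl1*, *Rian*, *Mirg* and *Dio3*, together with the intergenic control region between *Dlk1* and *Meg3*. The control region was taken as 3 tiles (110766001 to 110772000) lying upstream of *Meg3*, a position set from general knowledge of the locus.

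Sequencing of immunoprecipitated chromatin (ChIP-seq) for 3 histone marks linked to silencing, H3K27me3, H3K9me2 and H3K9me3, compared control and *Dnmt1* conditional knockout (*Dnmt1* cKO) mouse embryonic stem cells (ESCs). DNMT1 is the enzyme that keeps DNA methylated through cell division, and the comparison asked what becomes of these marks when it is lost. The labels call the genotypes Wildtype and Dnmt1 KO and give E14 as the background of all cells, whereas the methods describe *Dnmt1* loxP/loxP ESCs of strain C57BL/6 in which tamoxifen switched on the Cre recombinase. All cells were grown in serum with LIF, and tamoxifen or loxP alleles in the control cells were not stated in the sources used here. At day 4 there was 1 library per genotype for each mark, at day 8 there were 2, and chromatin of control cells gave 1 input library. The labels number the day 8 libraries but do not say that they came from separate cultures, and the methods describe the ChIP-seq data as coming from a single measurement, so SDs and p-values measure only the spread between these libraries, which may be technical. Each library's own label names an antibody to its mark and set its mark here, whereas the protocol text shared by all libraries names only an antibody to H3K9me2, and the labelled catalogue numbers of the H3K27me3 antibody differ between libraries.

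Levels are reads per tile given as times the genome mean of that library, differences are log2 of cKO over control, and the reads of both parental chromosomes were summed because the table does not separate alleles. Totals of reads in tiles lay between 14627174 and 26181489 for the ChIP libraries, apart from 1 shallow library, cKO replicate 1 of H3K9me3 at day 8, with 5669098 reads and 12.7% of tiles empty. The H3K9me3 differences of the control region, the *Meg3* promoter, the *Rtl1* and *Mirg* bodies and the whole domain are therefore also given without it. Those of single stretches, windows and sets of tiles, and the scaled values, are not. Promoters of 4 genes active in ESCs differed in H3K27me3 in the day 8 controls. *Pou5f1* and *Nanog* were low, with 90.8% and 71.6% of promoters higher. *Sox2* was near the middle (46.4% higher), and *Esrrb* had more than most promoters (23.8% higher). A histone mark does not report the deletion itself, and H3K27me3 over the *Dnmt1* gene body was 0.274 and 0.353 times the genome mean in the day 8 controls and 0.263 and 0.273 times in the cKO libraries. The share of reads in the 1% of tiles that were highest in the day 4 control, which measures how concentrated a library was, fell for H3K27me3 from 12.8% and 9.58% in day 8 controls to 8.07% and 5.31% in cKO libraries. For H3K9me3 it was 5.10% and 4.02% against 5.09% and 3.51%, and for H3K9me2 it was 2.22% and 2.40% against 2.33% and 1.91%.

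From left to right on NCBIM37, *Dlk1* (ENSMUSG00000040856) lies at 110691033 to 110701546 on the plus strand, and *Meg3* (ENSMUSG00000021268) at 110779211 to 110809936 on the same strand. The interval between them, 77.7 kb long, contains the control region. *Rtl1* (ENSMUSG00000085925) is the only member on the minus strand, at 110827404 to 110838540. *Rian* (ENSMUSG00000091793) spans 57.8 kb and *Mirg* (ENSMUSG00000091158) 14.5 kb on the plus strand. *Dio3* (ENSMUSG00000075707), a gene of 2.03 kb, stands alone at 111517278 to 111519307, after a long stretch without member genes.

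In an imprinted domain the maternal and paternal copies of a gene are used unequally. Here the protein-coding genes *Dlk1*, *Rtl1* and *Dio3* are known to be expressed from the paternal chromosome and the non-coding RNAs *Meg3*, *Rian* and *Mirg* from the maternal one, under a control region whose DNA is methylated on the paternal copy. The zinc finger protein ZFP57 binds the methylated hexamer TGCCGC at such regions and, with TRIM28 (KAP1), brings SETDB1, an enzyme that writes H3K9me3.

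The results turn on the control region and the starts of *Meg3*, *Dlk1* and *Dio3*, and their sequences are therefore shown from the NCBIM37 reference. In the first, the 300 bases with the most matches to the hexamer (chr12:110766374-110766673, plus strand), capitals mark TGCCGC, here on the plus strand only. In the promoters (250 bases before to 50 after the start, on the strand of the gene), capitals mark CG dinucleotides. The promoters lie at chr12:110778961-110779260 for *Meg3*, chr12:110690783-110691082 for *Dlk1* and chr12:111517028-111517327 for *Dio3*, all on the plus strand.
Control region stretch: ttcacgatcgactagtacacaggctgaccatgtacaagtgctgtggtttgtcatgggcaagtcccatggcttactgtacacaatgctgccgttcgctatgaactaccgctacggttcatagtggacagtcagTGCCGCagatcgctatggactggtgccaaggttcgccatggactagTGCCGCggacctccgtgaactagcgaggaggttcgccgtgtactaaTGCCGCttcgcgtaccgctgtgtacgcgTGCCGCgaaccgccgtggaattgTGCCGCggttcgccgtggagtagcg
Meg3 promoter: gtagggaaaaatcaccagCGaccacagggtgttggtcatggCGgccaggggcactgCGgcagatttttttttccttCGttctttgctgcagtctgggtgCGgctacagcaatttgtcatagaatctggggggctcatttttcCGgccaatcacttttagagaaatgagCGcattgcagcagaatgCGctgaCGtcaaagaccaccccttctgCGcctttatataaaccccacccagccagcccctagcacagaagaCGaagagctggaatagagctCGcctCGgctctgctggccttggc
Dlk1 promoter: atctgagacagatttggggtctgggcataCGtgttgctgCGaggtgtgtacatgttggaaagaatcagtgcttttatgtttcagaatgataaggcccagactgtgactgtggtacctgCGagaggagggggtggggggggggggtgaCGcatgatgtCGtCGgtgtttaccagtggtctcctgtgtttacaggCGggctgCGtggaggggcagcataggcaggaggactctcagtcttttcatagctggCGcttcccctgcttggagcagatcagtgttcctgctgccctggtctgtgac
Dio3 promoter: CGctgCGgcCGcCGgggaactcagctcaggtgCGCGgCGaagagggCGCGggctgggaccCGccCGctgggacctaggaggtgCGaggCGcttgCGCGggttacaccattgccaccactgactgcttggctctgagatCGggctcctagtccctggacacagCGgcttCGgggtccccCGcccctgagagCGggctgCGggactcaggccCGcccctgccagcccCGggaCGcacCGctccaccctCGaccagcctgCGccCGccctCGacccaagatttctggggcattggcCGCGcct

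The control region stretch lay 12837 to 12538 bp upstream of the *Meg3* start. It held 5 matches to TGCCGC, counted on either strand (GCGGCA on the other), and 30 CG dinucleotides. At least 5 matches occurred in 0.00846% of all promoter windows of the same length, and at least 1 in 13.7% of them. The stretch was picked for having the most matches, whereas each promoter window had a fixed place, so this share overstates its rarity. Of tiles, 81 in the domain (18%) held the hexamer, against 10.5% of all tiles. The tile with the stretch (110766001) had 5 matches and the tile just before the control region (110764001) had 4, and 0.0278% and 0.0738% of all tiles had as many or more. The 3 promoters differed in CG content, with 31 in *Dio3*, 13 in *Meg3* and 9 in *Dlk1*, around a median of 11 over all promoters. A match describes the letters of a window and says nothing of binding in these cells.

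H3K9me3 was concentrated at the control region in control cells and was lower there in *Dnmt1* cKO ESCs. The control region stood at 13.1 and 7.56 times the genome mean in the day 8 control libraries (557 and 331 reads). It stood at 7.34 and 3.07 times in the day 8 cKO libraries (94 and 135 reads), and the input was at 0.954. Both cKO libraries were below both controls, although the lower control and the higher cKO library nearly met, and the controls themselves were far apart. Only 89 of 423802 windows of 6 kb laid over the genome (0.021%) had a higher mean in the controls. On the log2 observed over expected scale the level was 2.94 ± 0.56 in control and 1.87 ± 0.89 in cKO (SD, n = 2), a difference of -1.07 (SE 0.38) that did not pass the threshold (limma, Benjamini-Hochberg adjusted p = 0.30). Without the shallow cKO library the difference was -1.70 and passed (limma, adjusted p = 7.65e-06), in a fit where the lone cKO library is assumed to vary like the controls. Without cKO replicate 2 it was -0.44 and without control replicate 1 it was -0.67, so the size of the fall depended on the libraries used.

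**Figure D1:**
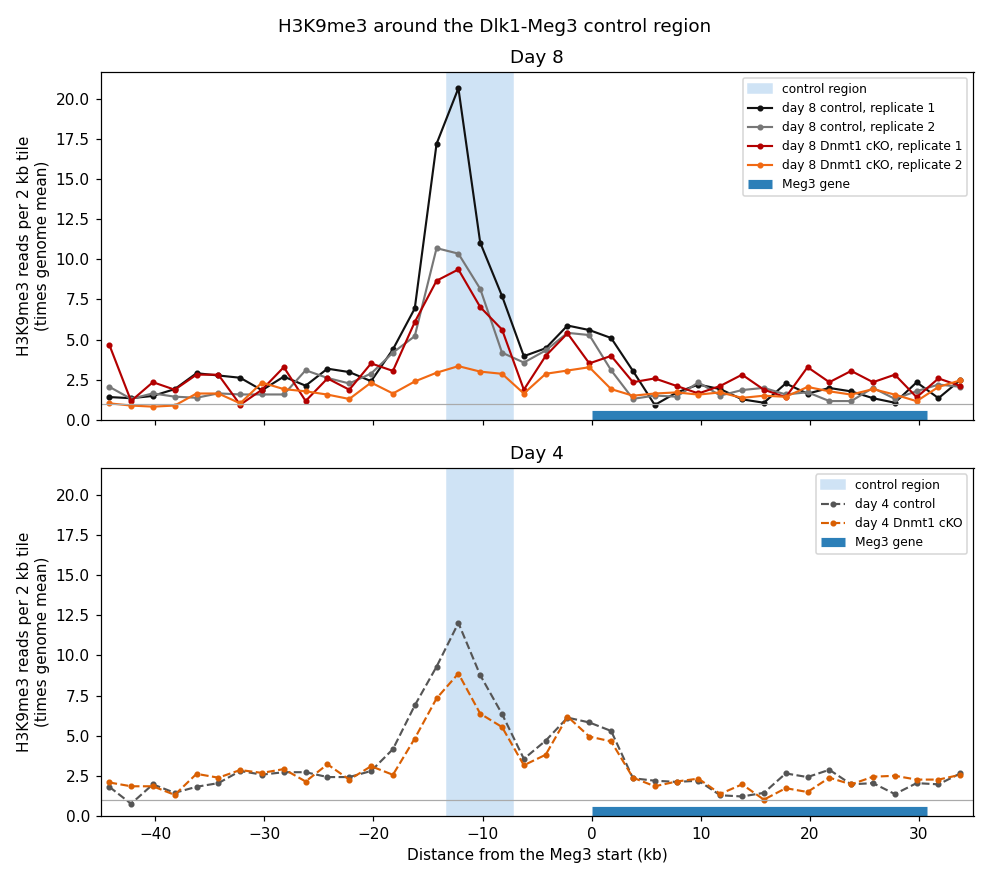
H3K9me3 per 2 kb tile (times the genome mean) against distance from the *Meg3* start (kb), 1 line per library, with day 8 above and day 4 below, the control region shaded and the genome mean as a thin line. The day 8 peak reaches 20.7 and 10.4 times in the controls and 9.37 and 3.34 times in the cKO libraries at the tile 110766001.

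The fall at the control region differed in direction from most windows of the domain, though the stretches beside it were lower too. Relative to the other 447 tiles, the control region was 8.74 and 5.39 times higher in the day 8 controls and 3.88 and 1.93 times higher in the cKO libraries, a difference of -1.33 on the log2 scale. In the 149 windows of 6 kb tested in the domain, the median difference was 0.30, against -0.03 over all windows tested, and 120 of the 149 were above 0. In 1 domain window the fall exceeded that of the control region, and over the genome 2.25% of windows fell further. The concentration of reads did not separate the genotypes for H3K9me3. Divided by the mean of the tiles highest in the day 4 control, the control region was at 2.86 and 2.08 in controls and 1.60 and 0.961 in cKO libraries, a log2 difference of -0.98. In all 3965 tiles of the genome with at least 4 times the mean in both controls, H3K9me3 went from 6.49 and 4.99 times the genome mean to 6.22 and 4.01 times. In the 10 domain tiles chosen by the same limit, it went from 8.82 and 6.26 to 6.18 and 2.99 times. This choice used the control libraries, so part of any lower value in cKO may come from the choice itself.

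At day 4 the difference was smaller. The single control library stood at 9.05 times the genome mean over the control region (359 reads) and the single cKO library at 6.93 times (349 reads), a ratio of 0.765 with exact binomial 95% limits of 0.659 to 0.889 that cover counting error only. The test of the difference between days gave -0.69 (SE 0.66, limma, adjusted p = 1.00), so a change from day 4 to day 8 was not shown.

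The tiles with the highest H3K9me3 in the domain were neighbours at this place. The tile at 110766001, with 53 CG dinucleotides, had 20.7 and 10.4 times the genome mean in the controls and 9.37 and 3.34 times in the cKO libraries. The tile at 110764001, with 65, had 17.2 and 10.7 times in the controls and 8.66 and 2.93 times in the cKO libraries. The tile at 110768001, with 32, had 11.04 and 8.16 times in the controls and 7.02 and 3.001 times in the cKO libraries. In each of them both cKO libraries lay below both controls, and none passed the threshold (differences -1.39, -1.43 and -1.05, limma adjusted p = 0.543, 0.524 and 0.567). A run of 6 tiles with at least 4 times the genome mean in both controls, a limit chosen after the values were seen, reached from 19.2 to 7.21 kb before *Meg3*. All 6 had a lower mean in cKO and in 4 the groups did not overlap with cKO lower, which held for 26.2% of the 3965 tiles chosen by that limit over the genome and 21.4% of all tiles with reads. The peak therefore began upstream of the 6 kb taken as the control region, and over 8 kb that include the tile before it the difference was -1.17 (limma, adjusted p = 0.210).

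H3K9me3 continued at a lower level to the start of *Meg3*, the non-coding RNA made from the maternal chromosome. Its promoter was at 5.59 and 5.28 times the genome mean in the day 8 controls (79 and 77 reads) and at 3.51 and 3.27 times in the cKO libraries (15 and 48 reads). Both cKO libraries were below both controls, but the 15 reads came from the shallow library. Ratios of cKO to control were taken between libraries of the same number, which are not stated to be pairs. In replicate 1 the ratio was 0.628, with counting limits (0.336 to 1.10) that include no change. In replicate 2 it was 0.620 (0.423 to 0.901). The difference of -0.68 (SE 0.21) did not pass the threshold (limma, adjusted p = 0.785, and -0.73 with adjusted p = 0.0887 without the shallow cKO library), and only 46 of 23653 promoters were higher in the controls. At day 4 the levels were 5.82 and 4.94 times, a ratio of 0.849 whose counting limits (0.615 to 1.17) include no change. The *Dlk1* promoter had almost no H3K9me3, with 9 and 6 reads in the controls and 1 and 3 reads in cKO, too few for its difference of -1.23 (limma, adjusted p = 0.785) to be read.

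No member promoter was called for H3K9me3 (0 of 6, 1 lower at an unadjusted p under 0.05, 0 by limma-voom), where 0.0214% of all promoters were called. Promoters of genes controlled by other germline methylated regions gave a reference. Each was read at the outermost annotated start of its gene, which need not be where the methylated region lies. Of 8 (*Peg3*, *Nnat*, *Nap1l5*, *Snrpn*, *Mest*, *Peg10*, *Plagl1* and *Zrsr1*), 2 were called lower, *Nnat* with a difference of -2.97 and *Nap1l5* with -2.24 (limma, adjusted p = 0.0336 and 0.0199). Both remained called when any library was left out, with -3.78 and -2.52 without the shallow one. Neither was called with GC correction (-3.15 and -2.21, limma, adjusted p = 0.826 and 0.80) or without a trended prior (limma, adjusted p = 0.838 for each). Of the 8, *Mest* (0.778 and 0.617 times the genome mean) and *Snrpn* (0.884 and 0.994 times) had little H3K9me3 in the controls, and their differences were 0.38 and -0.23. Over the *Mest* and *Snrpn* gene bodies the differences were -0.90 and -0.84, and all 8 gene bodies were below 0 with 0 called. The median difference of the 8 promoters was -2.45. Whether the control region differed from them was not tested.

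**Figure D2:**
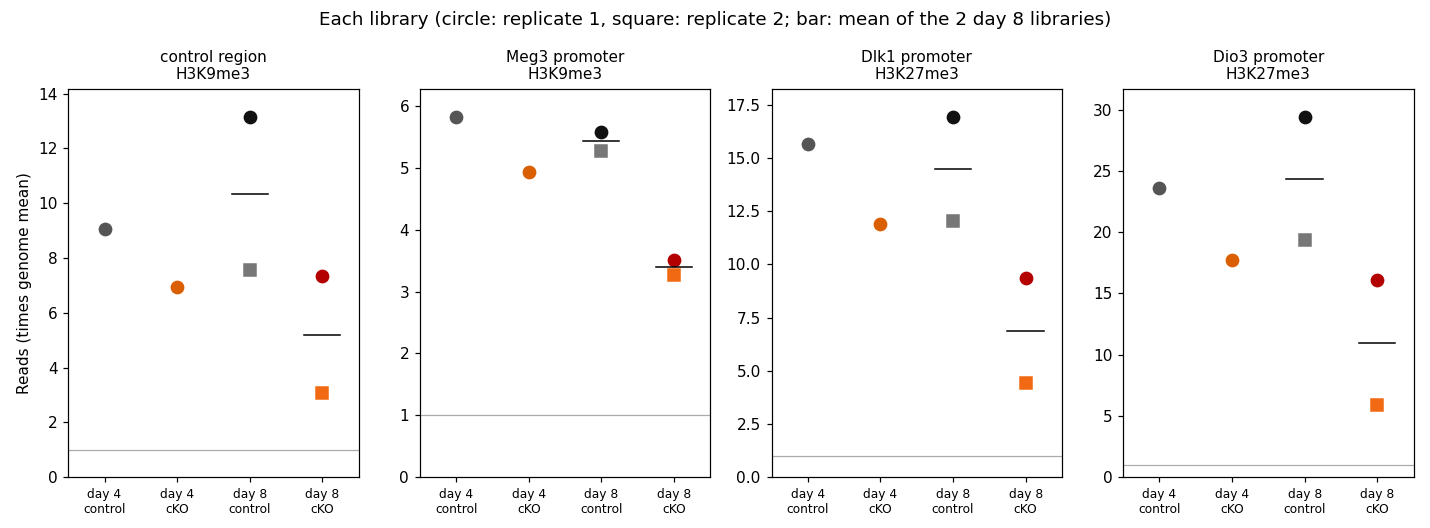
Level in each library (times the genome mean, axes from 0) for H3K9me3 at the control region and the *Meg3* promoter and H3K27me3 at the *Dlk1* and *Dio3* promoters, with circles for replicate 1, squares for replicate 2 and bars for day 8 means. At day 8 both cKO libraries lie below both controls in every panel, by the least at the control region (7.34 against 7.56 times).

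Away from the control region, most stretches had slightly more H3K9me3 in cKO and those beside it had less. The stretches themselves were not tested. The whole domain was at 1.58 and 1.44 times the genome mean in the day 8 controls and 1.93 and 1.60 times in the cKO libraries. The groups did not overlap, but an exact permutation test of 2 libraries against 2 cannot give a two-sided p under 0.333. The difference was 0.22, or 0.08 without the shallow library, and at day 4 the ratio was 1.05 (1.02 to 1.08). It was 0.38 in the 264 tiles between *Mirg* and *Dio3*, 0.50 before *Dlk1* and 0.20 between *Rian* and *Mirg*. It was -0.29 in the 32 tiles from *Dlk1* to the control region, where the groups overlapped, and -0.58 in the 3 tiles from the control region to *Meg3*, where they did not. Of the 449 domain tiles tested, 0 were called, against 0.00851% of all tiles, while 42 were higher and 16 lower at an unadjusted p under 0.05, against 7.84% of all tiles in either direction, and 0 were called by limma-voom. Without cKO replicate 2, which leaves the shallow library alone in its group, the difference of the whole domain was 0.35. Of the 149 windows 0 were called, against 0.0104% of all, with 33 higher and 4 lower at an unadjusted p under 0.05, against 12.3% of all windows in either direction, and 2 called by limma-voom. Over the genome limma-voom called 811 windows higher and 487 lower of 423357.

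Among gene bodies, *Rtl1* and *Mirg* were the members with more H3K9me3 at an unadjusted p under 0.05, which 14.1% of all gene bodies met in either direction. *Rtl1*, a gene derived from a retrotransposon, was at 1.72 and 1.78 times the genome mean in the controls and 2.14 and 2.32 times in cKO, a difference of 0.35 (SE 0.09, limma, adjusted p = 0.278). *Mirg*, a non-coding RNA that hosts many microRNAs, was at 1.42 and 1.38 times in the controls and 2.49 and 1.67 times in cKO, a difference of 0.55 (SE 0.20, limma, adjusted p = 0.350). In both genes every cKO library lay above every control, and without the shallow library the differences were 0.41 and 0.26 (limma, adjusted p = 0.338 and 0.444). The other 4 gene bodies ranged from -0.76 in *Dio3*, on 2 to 21 reads per library, to 0.47 in *Dlk1*, and 0 of 6 were called, as of all gene bodies (0%) and by limma-voom. The domain held 57 annotated microRNA genes, and the 33 tiles with them had a median difference of 0.40, with 27 above 0, against 0.29 over all domain tiles. Tiles with and without the hexamer were similar in this respect, with medians of 0.35 (81 tiles) and 0.27 (369 tiles).

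Tiles whose 2 cKO values both lay at least 2-fold from both control values were few. For H3K9me3, 6 of 449 tiles were higher, against 0.66% of all tiles, and 1 was lower, against 1.11%. The higher ones with the largest differences started from very few reads. A tile in the coding part of *Dlk1* (110692001) went from 1 and 1 reads to 4 and 8, and the intergenic tiles at 111422001 and 111200001 went from 4 and 12 reads to 9 and 28 and from 7 and 11 reads to 10 and 24. The lower tile lay in an exon of *Rian* (110876001), with 19 and 15 reads in the controls and 2 and 7 in cKO. The shallow library makes these read numbers unequal in depth.

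H3K27me3, the mark written by the Polycomb complex PRC2, peaked over *Dlk1* and *Dio3*, at opposite ends of the domain, and at an intergenic site between them. *Dlk1* encodes a membrane protein related to Notch ligands. Its promoter was at 16.9 and 12.04 times the genome mean in the day 8 controls (265 and 202 reads) and at 9.34 and 4.41 times in the cKO libraries (142 and 87 reads). Both cKO libraries were below both controls, and a difference of -1.15 (SE 0.51) did not pass the threshold (limma, adjusted p = 0.191). It lay between -1.69 and -0.61 when each library was left out, the smallest fall being without cKO replicate 2. In the controls 2.84% of promoters had more H3K27me3. *Dio3* encodes a deiodinase that inactivates thyroid hormone. Its promoter was at 29.4 and 19.4 times in the controls (460 and 325 reads) and 16.1 and 5.88 times in cKO (244 and 116 reads), with 0.664% of promoters higher in the controls. The groups did not overlap, and the difference of -1.30 (SE 0.66) did not pass (limma, adjusted p = 0.259). It was -2.02 without cKO replicate 1 and -0.57 without cKO replicate 2. With medians of tiles of like GC content subtracted from each library it was 0.11, the opposite direction, and this tile holds 241 CG dinucleotides.

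The same order of libraries held for the sites of H3K27me3 over the genome, so the concentration of the libraries moved with both promoters. In the 16620 tiles with at least 4 times the genome mean in both controls, H3K27me3 went from 11.1 and 8.47 times to 7.13 and 4.76 times. In the 13 such tiles of the domain it went from 16.3 and 11.9 times to 10.1 and 5.99 times. This choice used the control libraries, so part of any lower value in cKO may come from the choice itself. Divided by the mean of the tiles highest in the day 4 control, the *Dlk1* promoter was at 1.36 and 1.29 in controls and 1.19 and 0.851 in cKO, a log2 difference of -0.40. The *Dio3* promoter was at 2.36 and 2.07 in controls and 2.04 and 1.14 in cKO, a log2 difference of -0.54. In both, the groups still did not overlap and the differences were less than the -1.15 and -1.30 before division. The part of library concentration in the fall was not tested beyond this.

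**Figure D3:**
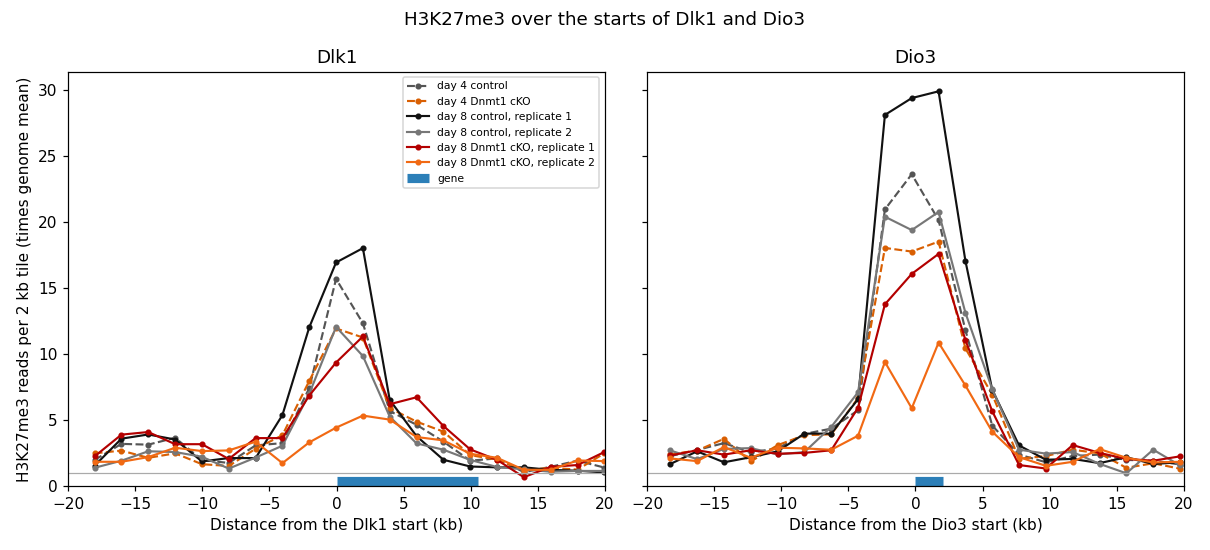
H3K27me3 per 2 kb tile (times the genome mean) against distance from the starts of *Dlk1* and *Dio3* (kb), 1 line per library and the gene drawn at the base. At the tile of the *Dio3* start the controls of day 8 reach 29.4 and 19.4 times and the cKO libraries 16.1 and 5.88 times.

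The H3K27me3 peak at *Dio3* covered 12 kb with *Dio3* and its antisense neighbour *Dio3os* (19.7 and 14.7 times in the controls, 11.7 and 6.94 times in cKO), and in all 6 of its tiles both cKO libraries were below both controls. So were they in 69.3% of the 16620 tiles with at least 4 times the genome mean in both controls, and in 16.9% of all tiles with reads. The highest 3 tiles of the domain were there, at 111518001, 111514001 and 111516001, with 17.6, 13.8 and 16.1 times in cKO replicate 1 and 10.9, 9.38 and 5.88 times in cKO replicate 2. The peak at *Dlk1* covered 8 kb (13.4 and 8.52 times in the controls, 8.42 and 4.51 times in cKO). Both peaks were bounded by the limit of 4 times in both controls, so part of a lower cKO value may come from that choice. A further peak of 6 kb, singled out after its values were seen, lay where no gene was annotated. Its highest tile (111426001), 89.3 kb before *Dio3*, held 111 CG dinucleotides and was at 19.0 and 15.0 times in the controls and 14.5 and 8.11 times in cKO (difference -0.64, limma, adjusted p = 0.774). At day 4 the *Dlk1* and *Dio3* promoters were at 15.7 and 23.6 times in control and 11.9 and 17.7 times in cKO, with ratios of 0.761 (0.625 to 0.924) and 0.752 (0.641 to 0.881).

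The *Meg3* promoter went the other way. It had little H3K27me3 in the day 8 controls, 1.28 and 1.31 times the genome mean (20 and 22 reads), and 3.75 and 1.93 times in the cKO libraries (57 and 38 reads). The controls were alike and both cKO libraries were higher, by different amounts. The difference of 1.05 (SE 0.36) missed the threshold (limma, adjusted p = 0.0996), and passed by limma-voom (1.04, adjusted p = 0.0485). Limma-voom called more of the 23342 promoters than the main fit, 86 higher and 1912 lower against 30 and 908. Without cKO replicate 2 the difference was 1.54, and without cKO replicate 1 it was 0.57. Divided by the mean of the tiles highest in the day 4 control, it was at 0.103 and 0.140 in controls and 0.476 and 0.372 in cKO, a log2 difference of 1.81. That mean itself was 12.45 and 9.36 times the genome mean in controls and 7.88 and 5.18 times in cKO. The division therefore raises every H3K27me3 difference by the same amount, and the larger value is not added support for a rise here. At day 4 the ratio at the *Meg3* promoter was 1.14 with counting limits of 0.631 to 2.05. Beside it, the control region itself showed no clear H3K27me3 change, with 0.915 and 1.15 times in the controls and 1.32 and 0.946 times in cKO (difference 0.12, SE 0.25, limma, adjusted p = 0.895).

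Over gene bodies, the H3K27me3 difference was -0.39 in *Dlk1*, 0.31 in *Meg3* and -1.04 in *Dio3* (limma, adjusted p = 0.530, 0.358 and 0.348), and those of *Rtl1*, *Rian* and *Mirg* lay between 0.00 and 0.17. When each library was left out *Dlk1* lay between -0.76 and -0.02 (the latter without cKO replicate 2), *Dio3* between -1.54 and -0.54 and *Meg3* between 0.16 and 0.46, and with GC correction *Dio3* was at -0.25. The whole domain was at 1.71 and 1.66 times in the controls and 1.68 and 1.505 times in cKO, with groups that overlapped. None of 6 gene bodies was called (0 by limma-voom, and 0% of all gene bodies), and 0 reached an unadjusted p under 0.05, which 19.7% of all gene bodies did. None of 6 promoters was called, with 1 higher and 1 lower at an unadjusted p under 0.05 and 1 called by limma-voom, where 4.02% of all promoters were called and 22.1% had an unadjusted p under 0.05. Of 448 tiles and 149 windows tested, 0 and 0 were called, where 0.244% of all tiles and 0.821% of all windows were. At an unadjusted p under 0.05, 25 tiles were higher and 12 lower, and 8 windows were higher and 3 lower, below the shares of all tiles (9.66%) and windows (12.4%) in either direction. Limma-voom called 1 tile and 0 windows. By the 2-fold criterion 1 tile was higher (111300001, intergenic, 9 and 10 reads in the controls and 19 and 25 in cKO) and 0 were lower, against 0.714% and 0.897% of all tiles.

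Genes flanking the domain served as neighbours outside it. The nearest before it, *Begain*, also carried H3K27me3 at its promoter, with 23.9 and 16.0 times in the controls and 12.1 and 6.36 times in cKO. The nearest after it, *Ppp2r5c*, had at most 0.51 times in these libraries. Of 8 flanking promoters within 500 kb, 1 was called lower for H3K27me3 (*Wdr20a*, difference -1.63, limma, adjusted p = 0.0255), and for H3K9me2 and H3K9me3 0 were called.

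H3K9me2, a mark spread over broad silent regions, was low where the other marks peaked. The control region was at 0.601 and 0.382 times the genome mean in the day 8 controls (30 and 14 reads) and 0.773 and 1.05 times in cKO (33 and 54 reads). Both cKO libraries were above both controls, and the difference of 0.91 (SE 0.40) did not pass (limma, adjusted p = 0.586). At day 4 the order was the opposite, 0.756 times in control and 0.444 times in cKO, with a ratio of 0.587 whose counting limits (0.309 to 1.10) include no change. The test of the difference between days gave 1.68 (SE 0.71, limma, adjusted p = 1.00). In its first tile, 110766001, there were 2 and 0 reads in the controls and 8 and 5 in cKO. H3K9me3 in that tile went from 20.7 and 10.4 times the genome mean to 9.37 and 3.34 times. The value of 9.37 rests on 40 reads of the shallow library.

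In the 13 domain tiles high in H3K27me3, H3K9me2 was at 0.513 and 0.586 times in the controls and 0.616 and 0.944 times in cKO. All 16620 tiles of that kind in the genome gave 0.482 and 0.581 times and 0.611 and 0.895 times, close to the domain. The median promoter of the genome differed by 0.48 in H3K9me2 and the median gene body by 0.28. The median promoter was at 0.97 without cKO replicate 1, 0.09 without cKO replicate 2 and 0.22 with GC correction, and the median body at 0.47 and 0.09 without those libraries. Member promoters had a median of 0.00 and member bodies of -0.09 in the fit of all 4 libraries. The *Mirg* promoter, with 0.423% of promoters higher in the controls, was at 1.68 and 3.03 times in the controls and 1.83 and 1.11 times in cKO, with groups that overlapped and a difference of -0.66 (SE 0.26, limma, adjusted p = 0.869). The *Meg3* promoter gave -0.67 (SE 0.56, limma, adjusted p = 0.869) on 7 to 19 reads. Over *Rtl1*, which had more H3K9me3, H3K9me2 was lower, at 1.60 and 1.52 times in the controls and 1.28 and 1.13 times in cKO (difference -0.37, SE 0.17, limma, adjusted p = 0.714). At day 4 its ratio was 0.662 (0.518 to 0.846), so the direction was the same at both days.

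For H3K9me2 0 of 6 bodies and 0 of 6 promoters were called, with 1 of each lower at an unadjusted p under 0.05 and 0 by limma-voom, against 0% and 0.06% of all called and 6.95% and 4.92% of all at an unadjusted p under 0.05. Of 448 tiles 0 were called (0% of all), with 11 higher and 27 lower at an unadjusted p under 0.05, and of 149 windows 0 were called (0% of all), with 6 higher and 7 lower, and limma-voom called 0 of either. Over the genome 6.44% of tiles and 8.25% of windows had an unadjusted p under 0.05. By the 2-fold criterion 5 tiles were higher, against 0.997% of all tiles, and 0 lower, against 0.283%. These included a tile in an intron of *Rian* (110848001, 3 and 1 reads in the controls, 8 and 11 in cKO) and an intergenic tile (111164001, 4 and 3 reads, then 8 and 21). The highest H3K9me2 tiles, at 111462001, 110934001 and 111296001, were intergenic and reached 2.16 to 3.68 times in the controls. The whole domain was at 1.29 and 1.37 times in the controls and 1.36 and 1.16 times in cKO.

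**Figure D4:**
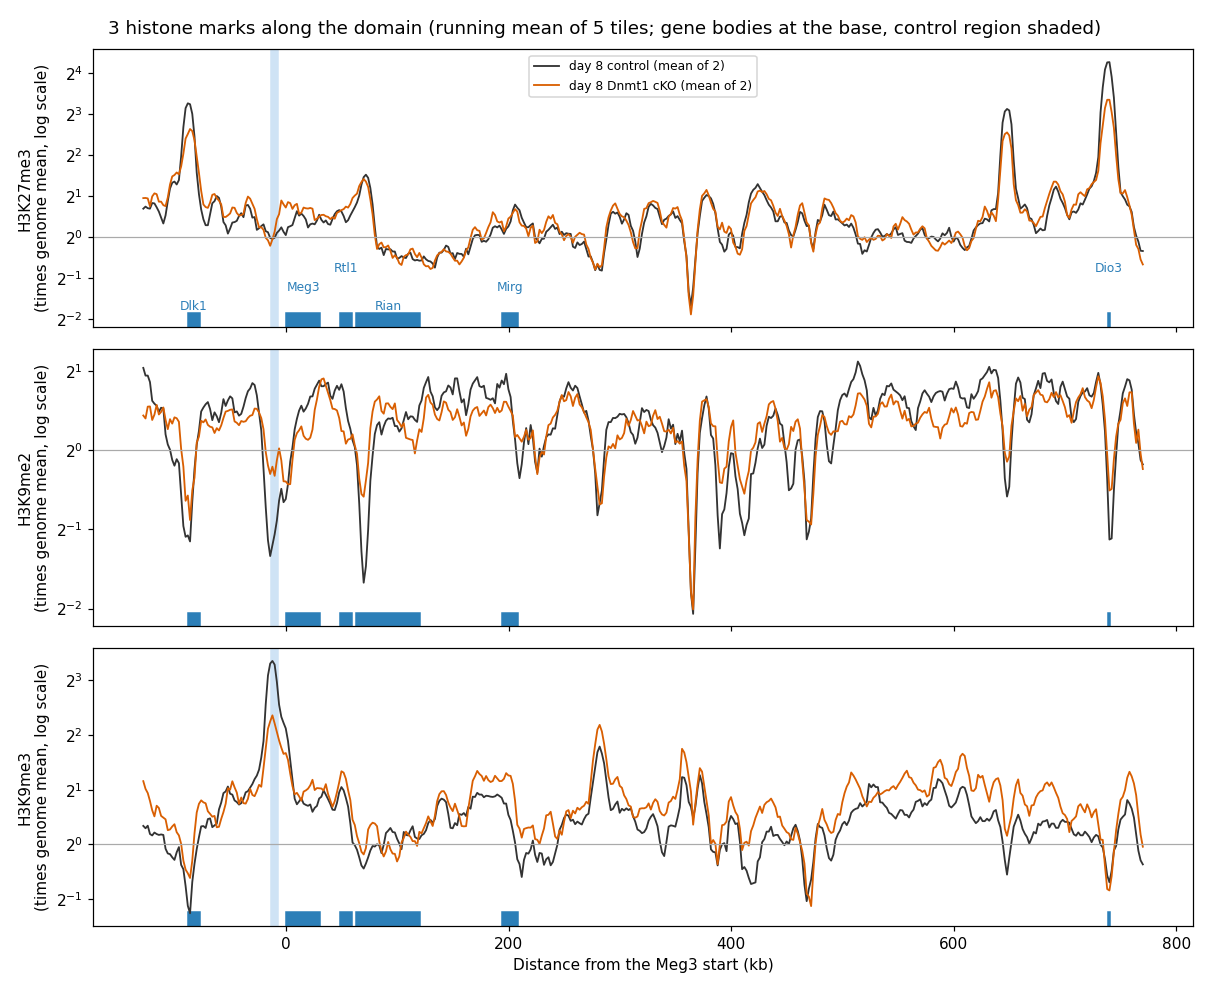
The 3 marks along the domain as running means of 5 tiles (times the genome mean, log scale) against distance from the *Meg3* start (kb), with day 8 means of 2 control and 2 cKO libraries, gene bodies at the base and the control region shaded. H3K27me3 peaks at *Dlk1*, between *Mirg* and *Dio3* and at *Dio3*, H3K9me3 peaks at the control region, and H3K9me2 dips at these places.

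Along the domain the 3 marks were laid out differently. Across its 450 tiles in the day 8 controls, Pearson's r was 0.35 between H3K9me2 and H3K9me3, 0.00 between H3K27me3 and H3K9me2 and -0.14 between H3K27me3 and H3K9me3. These are descriptions over tiles that share libraries, depth and base composition. An intron tile of *Rian* (110850001, chosen after its values were seen) carried H3K27me3 at 4.53 and 3.46 times in the controls and 3.55 and 2.38 times in cKO. The same tile had 4 and 2 reads of H3K9me2 in the controls and 6 and 10 in cKO. As a single picked tile it stands for no pattern over the 450 tiles.

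**Figure D5:**
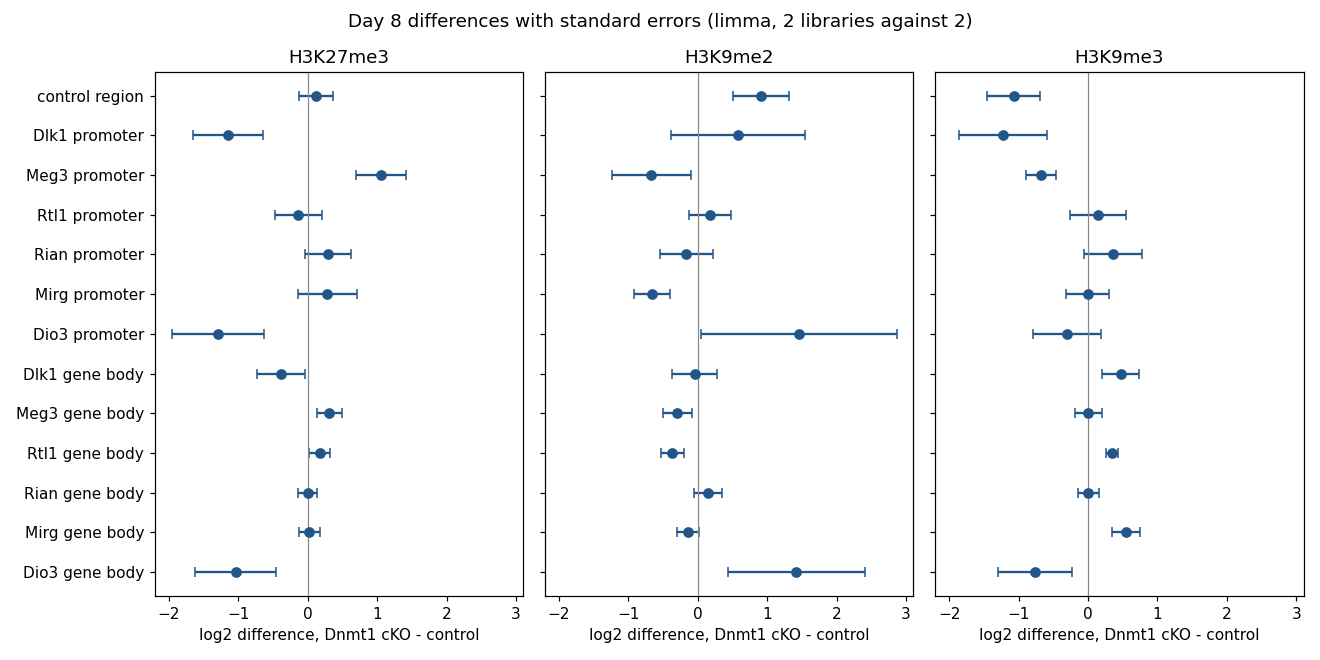
Day 8 differences (log2, cKO minus control) with standard errors from limma, 2 libraries against 2, for the control region and the promoters and bodies of the 6 genes in each mark. The control region is at -1.07 for H3K9me3, 0.91 for H3K9me2 and 0.12 for H3K27me3, and none of the values shown passed the threshold.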

How the data were processed

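ChIP-seq of 3 histone marks in ESCs gave 19 libraries. The authors used Trim Galore for trimming and Bowtie2 (2.2.9 per the submitters' processing notes) for alignment to NCBIM37, and dropped mappings of quality under 20. The authors deposited log2 observed over expected reads for tiles of 2 kb, although their methods name tiles of another size. Input was not subtracted and duplicate removal is not stated. Empty tiles carried the value of 0.9 reads. All low values (up to 20 reads, tolerance 0.01) were whole reads, so reads were recovered and summed over windows of 6 kb, gene bodies and promoters (tiles overlapping 1 kb upstream to the start). Per mark, 2 control and 2 cKO day 8 libraries were compared with limma 3.58.1 (R 4.3.3, trended prior, two-sided, Benjamini-Hochberg over all features, threshold 0.05), after a check on simulated data. Tiles empty in all 4 libraries were left out. Sequence work used Python 3.11.15.

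Members and lists were chosen with earlier results of these data known. Named were the members, their control region, flanking and other imprinted genes, per mark the 3 highest tiles, and up to 3 separated tiles per direction, separated meaning that both cKO values lay at least 2-fold beyond both controls. Alternatives were GC correction, centring, a replicate block, limma-voom, other filters and each library left out. Intervals cover counting error only, at the 95% level.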

Additional observations from a re-analysis of the deposited data

How the results depend on the processing

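The H3K9me3 difference at the control region kept its direction in every alternative run, and lay between -1.70 and -0.44 when each library was left out. It was called only without cKO replicate 1 and with a replicate block (-1.07, limma, adjusted p = 7.95e-07, and -1.30 with GC correction, adjusted p = 1.2e-05). The numbers are not stated to mark a shared batch, and deviations of same-numbered libraries over 6 kb windows correlated at 0.17 (H3K27me3), 0.13 (H3K9me2) and 0.08 (H3K9me3), and over 100 kb windows at 0.66, 0.40 and 0.30, so a call made with the block rests on a pairing that is not known. The 8 kb window and the scalings to the rest of the domain and to the highest tiles were chosen after seeing the data. With 2 libraries a group, and a median of 3 reads per tile in the shallow library, single tiles could not show small differences.

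With the replicate block 12 domain tiles, 1 member body and 3 member promoters were called for H3K27me3 (limma, adjusted p = 1.80e-08 for the promoter of *Dlk1*, 1.54e-09 for *Dio3*, 0.00022 for *Meg3* and 0.0353 for the *Dio3* body). Over the genome that fit called many features, 11720 tiles higher and 15925 lower of 1255417. It also called 536 gene bodies higher and 2019 lower of 23415, and 670 promoters higher and 5875 lower of 23342. With GC correction as well 10 tiles, 1 body and 2 promoters were called (limma, adjusted p = 5.55e-11 for the *Dlk1* and 0.00182 for the *Meg3* promoter). The body was that of *Dlk1* (limma, adjusted p = 0.048), and the *Dio3* body was not called (limma, adjusted p = 0.188). Over the genome this fit called 6398 tiles higher and 18032 lower, 400 and 2077 gene bodies, and 618 and 5475 promoters. The *Nnat* and *Nap1l5* promoters were not called for H3K9me3 with the block (limma, adjusted p = 0.797 each) or with both (0.11 and 0.179). That last fit called 3 domain tiles each for H3K9me2 and H3K9me3. Over the genome it called 41 tiles higher and 275 lower of 1254661 for H3K9me2, and 245 and 405 of 1256638 for H3K9me3. For H3K27me3, 1 domain tile was called with 1 read added, by limma-voom or with no filter, and limma-voom called 1 member promoter. In that order these settings called 1784, 1323 and 3948 tiles higher over the genome, and 3666, 4085 and 5819 lower. The control region changed sign for H3K27me3 in its middle tile (-0.072), and the *Dio3* promoter changed sign for H3K27me3 with GC correction, with and without the replicate block (0.11 in both). The causes were not tested. The whole domain moved for H3K27me3 to -0.17 when centred or GC corrected and to 0.051 as a mean of tile values, and for H3K9me2 to -0.26 with GC correction. Tiles 2-fold higher for H3K27me3 fell to 0 when centred, GC corrected or with 1 read added. For H3K9me2 there were 3 higher and 3 lower with GC correction and 2 higher with 1 read added, and for H3K9me3 0 lower with 1 read added.

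Leaving out each library in turn, the control region ranged from -0.12 to 0.36 for H3K27me3, negative without control replicate 1 (-0.05) or cKO replicate 1 (-0.12), and from 0.59 to 1.24 for H3K9me2. Domain tiles called ranged from 1 to 2 for H3K27me3, 0 to 1 for H3K9me2 and 0 to 39 for H3K9me3, and member promoters called from 0 to 1 for H3K27me3. Tiles 2-fold higher ranged from 2 to 12, 7 to 23 and 11 to 41 in that order of marks, and tiles 2-fold lower from 1 to 11, 2 to 9 and 1 to 19. With 1 library fewer, fewer values have to lie apart. The share of all tiles that met the 2-fold criterion without each library is not given here. The number of tiles called over the genome also changed with the library left out. These ranges of called and 2-fold tiles therefore cannot be read as a property of the domain.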
